A study of Rattus norvegicus with 4 samples.

Results

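The miR-23, miR-24 and miR-27 miRNAs are made from a pair of gene clusters. One holds the hairpins of miR-23a, miR-27a and miR-24-2, the other those of miR-23b, miR-27b and miR-24-1. The members were chosen by name: rno-miR-23a, rno-miR-23b, rno-miR-24, rno-miR-27a and rno-miR-27b (rno for Rattus norvegicus, left out below), without the entries for the other strand of each hairpin (names ending in an asterisk). They are 5 of the 350 rat miRNAs on the array, and all 5 were detected on all 4 arrays.

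All samples were labelled as gracilis, a muscle of the inner thigh, from male Sprague-Dawley rats. For 1 of them, ischemia-reperfusion replicate 2, the muscle miRNAs go against that label, as described below, and it may not be muscle. The 2 control samples came from sham-operated animals, and the 2 others were taken after 4 h of ischemia and reperfusion. For the reperfusion the sample labels state 4 h but the series design text states 24 h, and the files do not settle which is right. No genotype, transgene or drug is named for either group, and no age is stated. Total RNA of each sample was labelled with the dye Cy3 and hybridised in 1 colour. Each value is the total signal of a miRNA over its probes after background subtraction, with the scanner software's own error. The series text speaks of 2 biological replicates per condition, while the labels use that term for the sham samples alone. If the samples of a group were not from separate animals, p-values measure only technical spread.

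A miRNA guides repressor complexes to messenger RNAs that pair with its seed, bases 2 to 8 from its 5′ end. miRNAs of one seed are therefore counted as a family with largely shared targets. The miR-23, miR-27 and miR-24 hairpins of a cluster lie on one primary transcript, although processing and decay can set each mature miRNA apart. Both clusters are well expressed in endothelial cells. miR-23a is known in mouse muscle for repressing the atrophy ubiquitin ligases atrogin-1 and MuRF1. miR-27b acts on Pax3 in mouse satellite cells, the stem cells of muscle, and miR-24 is known for its action in the endothelium of the ischemic mouse heart.

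The mature sequences of all 5 members are shown because the paralogues differ by 1 base, which is all that their probes have to tell apart. They are RefSeq sequences (build GRCr8), matched by name to the 3p strand (5 of 5 matched), and capitals mark the seed.
miR-23a: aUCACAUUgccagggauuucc
miR-23b: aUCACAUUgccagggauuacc
miR-27a: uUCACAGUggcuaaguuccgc
miR-27b: uUCACAGUggcuaaguucugc
miR-24: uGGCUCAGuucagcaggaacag
Counted from 1 at the 5′ end, miR-23b differs from miR-23a by U19A alone and miR-27b from miR-27a by C19U alone, so each pair shares 20 of 21 bases and the same seed. The seeds of miR-23 and miR-27 have the same base at 6 of 7 positions, and the seed of miR-24 matches neither at any position. No other of the 693 mature names in the RefSeq table has any of these 3 seeds. Probe sequences were not used here, so how well the array separates U19A or C19U is not known from these data.

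All 6 hairpins are on the minus strand, in the order miR-23, miR-27, miR-24. The cluster of miR-23a lies at chr19:40859455-40859843 (GRCr8) and spans 389 bases, with 79 and 40 bases between hairpins, between the coding genes Nanos3 and Zswim4. The cluster of miR-23b lies at chr17:1818669-1819482, spans 814 bases with gaps of 142 and 410 bases, and lies within the annotated bounds of Aopep, a gene for an aminopeptidase. The Fancc gene overlaps that cluster in part. Whether the hairpins fall in an exon or intron was not looked up here.

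miR-24 is encoded in both clusters. Its hairpins are shown because they carry the same mature miRNA, in capitals, in different flanks.
Mir24-1, chr17:1818669-1818736: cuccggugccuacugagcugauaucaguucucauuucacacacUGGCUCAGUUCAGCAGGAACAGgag
Mir24-2, chr19:40859455-40859562: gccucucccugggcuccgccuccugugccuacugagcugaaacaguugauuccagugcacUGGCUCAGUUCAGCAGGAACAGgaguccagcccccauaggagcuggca
The array's miR-24 signal therefore cannot separate the products of the clusters, and the share of each in these samples is not known. The other strands do differ between the hairpins: they share their first 16 bases and then part, as the capitals show.
miR-24-1*: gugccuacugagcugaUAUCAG
miR-24-2*: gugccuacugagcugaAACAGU

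The arrays differed in brightness and in content, which touches every value below. For comparison between arrays, an array's signals were divided by an upper quartile, the 75th percentile of the 78 miRNAs that every array detected. That quartile was 3380 and 1171 units in the sham samples and 995 and 92.0 units in the ischemia-reperfusion samples. One array, of the sample labelled ischemia-reperfusion replicate 2, was unlike the rest: 0 of 6 muscle miRNAs were detected there, against 5 in each other sample (heart-type miR-208 in none), and their summed signal was 11.6 units against 90702 to 211933. The muscle-enriched miR-133b gave 1.93 units there and 75842 to 102374 units elsewhere. Of 7 epithelial miRNAs that sample detected 6 (summed signal 582 units), ischemia-reperfusion replicate 1 detected 2 (351 units) and the sham samples 0 (1.58 and 16.2 units). The 2 in ischemia-reperfusion replicate 1, miR-200c (122 units) and miR-205 (225 units), had scanner errors of only 2.47 and 2.50 units. On the same array miR-130a, at 220 units, had an error of 15.9 units. These 2 epithelial values are therefore uncertain, and the reason was not looked into. Ischemia-reperfusion replicate 1 was close to sham replicate 2: their log2 ratios had an SD of 0.27 over 171 miRNAs, where 2 samples of one group gave 1.33 (sham) and 1.95 (ischemia-reperfusion). The part of these differences in the results was not tested. Where ischemia-reperfusion replicate 2 enters, a difference in tissue and a difference in treatment cannot be told apart. In bulk tissue, fewer cells of a type and less RNA per cell cannot be told apart.

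As measured, all 5 members were bright and fell in one order over the arrays, from sham replicate 1 to sham replicate 2, ischemia-reperfusion replicate 1 and ischemia-reperfusion replicate 2. The signal of rno-miR-23a was 6634 and 2738 units in the sham samples and 2207 and 434 units in the ischemia-reperfusion samples. Its paralogue rno-miR-23b gave 5184 and 1596 units in the sham samples and 1284 and 195 units in the ischemia-reperfusion samples. rno-miR-24 gave 4723 and 2358 units in the sham samples and 1863 and 342 units in the ischemia-reperfusion samples. The dimmest array thus kept, for these 3 miRNAs, 6.55%, 3.75% and 7.23% of the signal on the brightest. The signal of rno-miR-27a was 4136 and 2148 units in the sham samples and 1479 and 250 units in the ischemia-reperfusion samples. For rno-miR-27b the signal was 3155 and 1205 units in the sham samples and 892 and 74.6 units in the ischemia-reperfusion samples, so that 2.36% of its brightest value was left, the least of the members. The scanner error of these signals was 7.14% to 8.39%. The median miRNA also dimmed: over the 81 miRNAs detected on both sham replicate 1 and ischemia-reperfusion replicate 2 the unscaled log2 ratio had a median of −3.83.

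**Figure D1:**
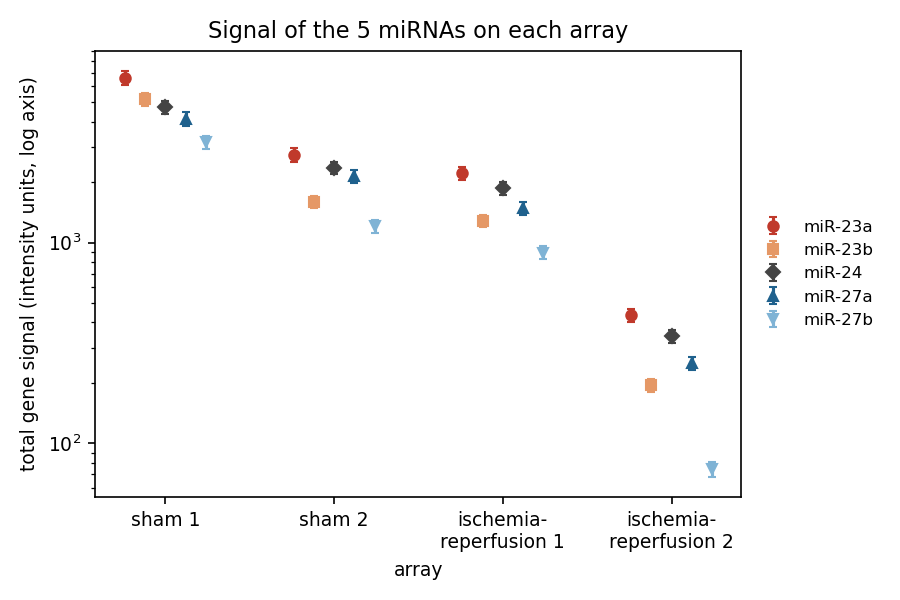
Total gene signal of the 5 members in intensity units on a log axis, for each of the 4 arrays; points are single arrays and bars the scanner error. All 5 members are brightest on sham replicate 1 and dimmest on ischemia-reperfusion replicate 2, where miR-27b is at 74.6 units.

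After scaling, the arrays were ordered differently. Levels here are log2 of the signal over the array's 75th percentile. The level of miR-23a was 0.97 and 1.23 in sham muscle and 1.15 and 2.24 after ischemia-reperfusion. That of miR-24 was 0.48 and 1.01 in sham muscle and 0.90 and 1.89 after ischemia-reperfusion. For miR-27a the level was 0.29 and 0.88 in sham muscle and 0.57 and 1.44 after ischemia-reperfusion. These 3 miRNAs shared one order, with sham replicate 1 lowest, ischemia-reperfusion replicate 1 and sham replicate 2 next, and ischemia-reperfusion replicate 2 highest, so their groups overlapped. Ischemia-reperfusion replicate 1 and sham replicate 2, neighbours in that order, differed by under 1 scanner error for miR-23a (0.49) and miR-24 (0.72), and by 1.99 for miR-27a. For the b paralogues, the same arrays differed by 0.53 scanner errors for miR-23b and by 1.33 for miR-27b.

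The b paralogues had other orders. The level of miR-23b was 0.62 and 0.45 in sham muscle and 0.37 and 1.08 after ischemia-reperfusion. It was lowest in ischemia-reperfusion replicate 1 and highest in replicate 2, with both sham samples between them. miR-27b had a level of −0.10 and 0.04 in sham muscle and −0.16 and −0.30 after ischemia-reperfusion. It was the only member for which ischemia-reperfusion replicate 2 was the lowest array and the only one whose groups did not overlap. Of the 159 miRNAs tested, both ischemia-reperfusion arrays lay below both sham arrays for 21, or 13.2%, and above them for 19, or 11.9%, which makes 25.2% in either direction. The members had 1 of 5 below and 0 of 5 above. The gap for miR-27b was narrow: ischemia-reperfusion replicate 1 differed from sham replicate 1 by 0.39 scanner errors, and the groups' SDs were 0.0994 and 0.102 around means of −0.03 and −0.23.

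**Figure D2:**
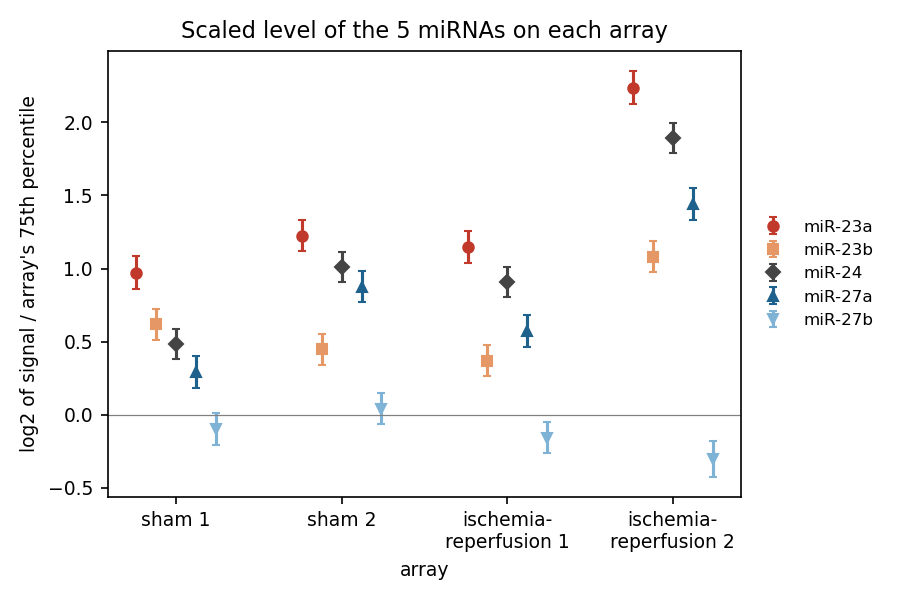
Scaled level (log2 of signal over the array's 75th percentile) of the 5 members on each array; points are single arrays and bars the scanner error on the log2 scale. miR-23a, miR-23b, miR-24 and miR-27a are highest on ischemia-reperfusion replicate 2, and miR-27b is lowest there, at −0.30.

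The series compares samples labelled ischemia-reperfusion with sham muscle, and no member passed the test for a difference. One of the 2 arrays of the first group is the one without muscle miRNAs, so that these differences may in part compare tissues. The log2 difference, ischemia-reperfusion minus sham, was 0.65 ± 0.96 (SE, n = 2 per group) for miR-24 and 0.59 ± 0.95 for miR-23a, each with a limma adjusted p of 0.817. It was 0.42 ± 0.95 for miR-27a (limma adjusted p = 0.850), 0.19 ± 0.92 for miR-23b (limma adjusted p = 0.956) and −0.20 ± 0.89 for miR-27b (limma adjusted p = 0.951). Of the 159 miRNAs tested, limma called 0 higher (0%) and 0 lower (0%) after Benjamini-Hochberg adjustment, at a threshold of 0.05. At an unadjusted p under 0.05 it called 2 of all miRNAs (1.26%) and none of the members, and without moderation it called 0 at that level. The 2 were the epithelial miR-200c and miR-205, whose uncertain values in ischemia-reperfusion replicate 1 are described above.

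Read against all tested miRNAs, the members' median lay near that of the array under the main scaling. Their median difference was 0.42 with 4 of 5 positive, while all 159 tested miRNAs had a median of 0.45, quartiles of −0.65 and 1.08, and 61.6% positive. The sign of the 4 positive members turned with the scaling, and that of miR-23b and miR-27a also without ischemia-reperfusion replicate 2. Without that array the differences were 0.05 for miR-23a, 0.16 for miR-24, −0.011 for miR-27a, −0.16 for miR-23b and −0.13 for miR-27b, against a median over all tested of 0.06. In replicate 2 alone they were 1.14, 1.15, 0.86, 0.55 and −0.27 in the same order. With the 75th percentile of all miRNAs as the scale all 5 were negative, at a median of −0.34, where the median over all tested moved to −0.31. With quantile normalization the members' median was 0.20 with 4 of 5 positive, whereas that over all tested was −0.35 with 36.5% positive. miR-27b was the one member with the same sign under every alternative run, −0.13 to −2.92. Filters, variance models and leaving out an array could not turn its sign, however.

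**Figure D3:**
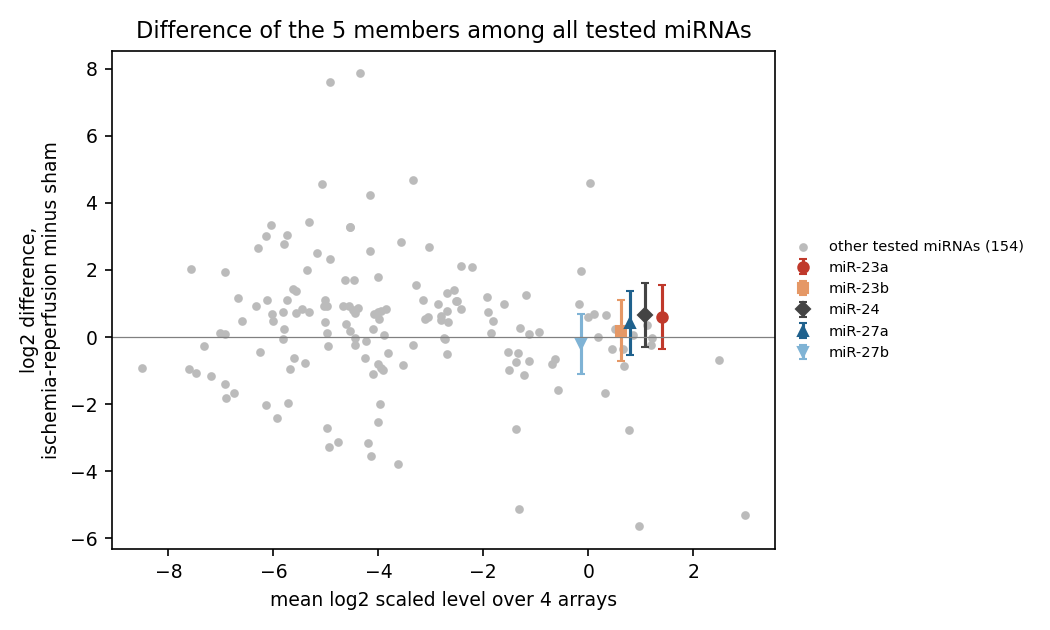
Log2 difference (ischemia-reperfusion minus sham) against the mean log2 scaled level over 4 arrays for the 159 tested miRNAs; grey points are other miRNAs, coloured points the 5 members with bars of 1 SE. The members lie among the brighter miRNAs, with differences between −0.20 and 0.65.

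The paralogues were then set against each other within each array, where the scaling cancels. Because 2 probes differ in brightness, only the change of a ratio between arrays is read, not its level. The a-over-b signal ratio of miR-23 was 1.28 and 1.72 in the sham samples and 1.72 and 2.23 after ischemia-reperfusion. For miR-27 it was 1.31 and 1.78 in the sham samples and 1.66 and 3.35 after ischemia-reperfusion. Both ratios were lowest on sham replicate 1, close together on sham replicate 2 and ischemia-reperfusion replicate 1, and highest on ischemia-reperfusion replicate 2.

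On the log2 scale, the miR-23 ratio was 0.57 ± 0.30 in sham muscle and 0.97 ± 0.27 after ischemia-reperfusion (SD, n = 2), a change of 0.40 or 1.32-fold. An exact two-sided permutation test gave p = 0.333, the smallest that 2 against 2 samples allow. The groups did not overlap, which held for 0 of the 6 other a/b pairs described below. For the levels of single miRNAs it held for 25.2% of the 159 tested, so it is no trait particular to this ratio. Moreover, sham replicate 2 and ischemia-reperfusion replicate 1 differed by only 0.0034 with a scanner error of 0.21. The miR-27 ratio was 0.61 ± 0.31 in sham muscle and 1.24 ± 0.72 after ischemia-reperfusion, a change of 0.62 or 1.54-fold (exact permutation p = 0.667; 2 ratios were tested, adjusted p = 0.667 for both), and its groups overlapped. With 2 samples a group neither ratio could pass a threshold of 0.05. Without ischemia-reperfusion replicate 2 the changes were 0.21 for miR-23 and 0.12 for miR-27.

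The scanner error gives the technical precision of a ratio and leaves out the spread between samples. Ischemia-reperfusion replicate 2 exceeded ischemia-reperfusion replicate 1 by 1.01 ± 0.22 (scanner error) on the log2 scale for miR-27, or 4.55 errors, and by 0.38 ± 0.22 for miR-23, or 1.72 errors. It exceeded sham replicate 1 by 1.35 ± 0.23 and 0.80 ± 0.22. Between the sham samples, of one group, the gaps were 0.44 ± 0.22 and 0.42 ± 0.22, and between sham replicate 2 and ischemia-reperfusion replicate 1 they were within 1 scanner error for both pairs. The array with the brightest 75th percentile (3380 units) thus had the lowest ratio of both pairs and the dimmest array (92.0 units) the highest. The part of brightness in this was not tested.

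**Figure D4:**
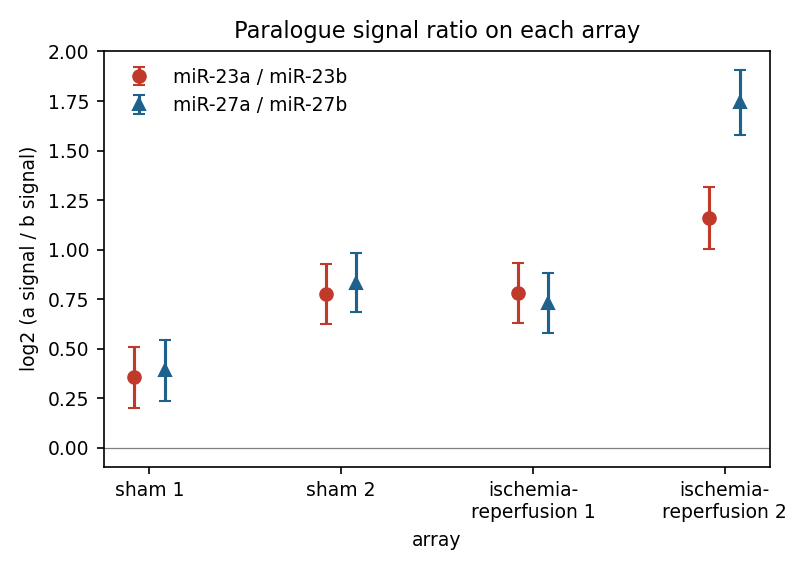
Log2 of the a signal over the b signal for miR-23 and miR-27 on each array; points are single arrays and bars the combined scanner error. Both ratios are lowest on sham replicate 1 (0.36 and 0.39) and highest on ischemia-reperfusion replicate 2 (1.16 and 1.74).

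The array holds 6 other a/b pairs of names detected on all arrays, a comparison added after the members' values were seen. Their absolute change between groups ran from 0.0385 (miR-29) to 0.92 (miR-196), with a median of 0.40. The change of miR-27 (0.62) was below that of miR-196 and above that of the other 5, and that of miR-23 (0.40) lay near their median. The a name gained in 1 of the 6 (miR-19) and the b name in 5, while the a name gained in both member pairs. These pairs were matched by the letters of their names alone, so the count sets no expected direction for the members.

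miR-24, which both clusters encode, gives a further reference within the array. Relative to miR-24, the log2 ratio of miR-23a was 0.49 and 0.22 in the sham samples and 0.24 and 0.35 after ischemia-reperfusion. That of miR-27a was −0.19 and −0.13 in the sham samples and −0.33 and −0.45 after ischemia-reperfusion. The a-cluster miRNAs and miR-24 thus kept nearly one ratio over the arrays, with ranges of 0.27 and 0.32. For miR-23b the log2 ratio to miR-24 was 0.13 and −0.56 in the sham samples and −0.54 and −0.81 after ischemia-reperfusion. For miR-27b it was −0.58 and −0.97 in the sham samples and −1.06 and −2.20 after ischemia-reperfusion. The b-cluster ratios ranged over 0.95 and 1.61, both highest on sham replicate 1 and lowest on ischemia-reperfusion replicate 2. Without that replicate the ranges were 0.70 for miR-23b and 0.48 for miR-27b, against 0.27 for miR-23a and 0.20 for miR-27a. No test was made of these ranges.

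**Figure D5:**
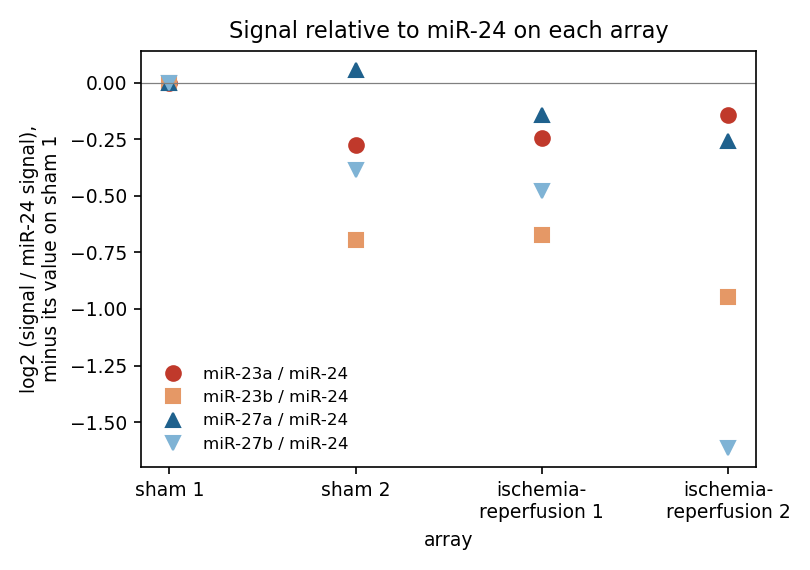
Log2 of each member's signal over the miR-24 signal on each array, minus its value on sham replicate 1; each point is 1 array. miR-23a and miR-27a stay within 0.32 over the arrays, while miR-23b and miR-27b range over 0.95 and 1.61 (0.70 and 0.48 without ischemia-reperfusion replicate 2).

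For scale, any 2 of the 78 miRNAs detected on all arrays had a log2 ratio whose range over the 4 arrays had a median of 2.57 (quartiles 1.59 and 3.96, 3003 pairs). The 10 pairs of members ranged from 0.27 (miR-23a with miR-24) to 1.61 (miR-24 with miR-27b), with a median of 0.87. Bright miRNAs vary less: among the 21 miRNAs at least as bright on average as the dimmest member, the median range was 1.77 (210 pairs). Without ischemia-reperfusion replicate 2 the members' pairs had a median range of 0.38, against 1.12 for all and 0.60 for the bright pairs. Within a cluster, miR-23a and miR-27a ranged over 0.45, and miR-23b and miR-27b over 0.98, or 0.31 without ischemia-reperfusion replicate 2. These are descriptions over 4 arrays, and the pairs share arrays.

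The other strands of the same hairpins were dim. Of 6 such names looked for, 4 were on the array: miR-23a*, miR-24-1*, miR-24-2* and miR-27a*. miR-24-2*, which only the chromosome 19 hairpin yields, gave 39.8 and 27.4 units in sham muscle and 17.3 units in ischemia-reperfusion replicate 1, all detected. It was not detected on ischemia-reperfusion replicate 2 (−2.16 units, scanner error 1.78). miR-24-1*, from the chromosome 17 hairpin, was not detected on any array, with −17.6 and −2.95 units in the sham samples and −2.67 and −1.39 units in the ischemia-reperfusion samples. The miR-24-2* signal thus followed the order of array brightness, as miR-24 did. miR-23a* was not detected on sham replicate 1 (−14.4 units), although miR-23a was brightest there, and was detected at 35.5 units on sham replicate 2 and at 23.0 and 8.92 units after ischemia-reperfusion. miR-27a* was detected on no array. The 2 other strands tested, miR-23a* and miR-24-2*, had no call (limma adjusted p = 0.817 each), and each has only a bound in 1 sample.

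Among vessel miRNAs, miR-126 and its other strand miR-126* had patterns unlike the members. By their values, in part below detection, miR-130a, miR-221 and miR-222 shared the array order of 3 members. miR-126, the main endothelial miRNA, gave 4275 and 230 units in the sham samples and 227 and 35.1 units in the ischemia-reperfusion samples, so its scaled level fell by 2.69 on the log2 scale from sham replicate 1 to sham replicate 2, where the members differed by −0.17 to 0.58. Its difference between groups was −0.76 (limma adjusted p = 0.817). The other strand, miR-126*, gave 153 units on sham replicate 1 and was not detected on the other arrays (5.85, 6.93 and 8.21 units). Its scaled level also fell from sham replicate 1 (−4.46) to sham replicate 2 (−7.65, below detection). miR-126* was not tested. miR-130a, named after its values were seen, had a scaled level of −2.50 and −2.05 in the sham samples and −2.18 and −0.90 in the others, the array order of miR-23a, miR-24 and miR-27a. The values of miR-221 and miR-222 had that order too, but not all of them were detected. miR-221 was not detected on sham replicate 1. miR-222 was detected only on ischemia-reperfusion replicate 2, so the order of its other arrays was not measured. Both smooth muscle miRNAs had that order as well: miR-143 at 0.18, 0.59, 0.58 and 0.67, and miR-145 at −5.38, −4.91, −4.92 and −3.50, the last below detection. All of these were named after their values were seen. How many of all miRNAs share that order was not counted. The median centred level of the 73 other miRNAs detected on all arrays had the same ends. It was lowest on sham replicate 1 (−0.47) and highest on ischemia-reperfusion replicate 2 (0.78). Of the 5 vessel miRNAs looked for besides the members, 3 were tested, of which 2 were positive and 1 negative (median 0.74, or 0.10 without ischemia-reperfusion replicate 2, 0 called). Their summed signal was 5045 and 567 units in the sham samples and 484 and 224 units in the ischemia-reperfusion samples. The 2 smooth muscle miRNAs, miR-143 and miR-145, were both tested and both positive (median 0.59, or 0.21 without that replicate, 0 called). For leukocytes 4 of 5 were tested, 3 positive and 1 negative (median 0.76, or 1.30 without it, 0 called), and for red cells 2 of 2 on the array, 1 positive and 1 negative (median 0.59, or 1.06 without it, 0 called). The 5 tested muscle miRNAs had a median of −5.11, or 0.13 without it, and the 2 tested epithelial miRNAs a median of 7.74, or 5.92 without it, with 0 called in each. Their signs are no result, since the muscle miRNAs entered the test through the sham arrays and the epithelial miRNAs through the ischemia-reperfusion arrays, which alone detected them on both arrays. The same holds for miR-144, miR-145, miR-150 and miR-342-3p, which entered through the sham arrays alone. miR-221 entered through the ischemia-reperfusion arrays alone. Their signs in the vessel, smooth muscle, leukocyte and red cell counts are no result either. The 2 epithelial miRNAs are miR-200c and miR-205, whose values in ischemia-reperfusion replicate 1 are uncertain, as described above.

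The miRNAs whose pattern was most like that of the members were miR-347, miR-25, miR-365, miR-181a and miR-107, in that order. Likeness was the root mean square distance of the scaled level, centred over the 4 arrays, from the members' mean profile. These 5 of the 73 other miRNAs detected on all arrays were at distances of 0.16 to 0.21, against a median of 0.69. The members themselves were at 0.13 (miR-27a) to 0.21 (miR-24), except miR-27b at 0.40. Each member is part of that mean profile, so its distance is partly small by construction and is not comparable with those of the others. The members' mean profile was −0.30 and −0.03 in the sham samples and −0.19 and 0.52 after ischemia-reperfusion. The median of the other 73 had the same order at the ends, −0.47 on sham replicate 1 and 0.78 on ischemia-reperfusion replicate 2.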

How the data were processed

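The 4 samples, all labelled rat gracilis muscle, were grouped by their titles, 2 sham and 2 ischemia-reperfusion. The miRNAs of ischemia-reperfusion replicate 2 go against its tissue label, and it was kept under that label, with values given without it. The submitters' processing notes name Agilent Feature Extraction 9.5.3 as the scanner software. Per the file headers, each deposited file holds the total signal intensity of every miRNA, its error and a detection flag. The deposited intensities are linear and unscaled, and the series' deposited value table holds the same values (0 of 1400 differ). How the flag was set was not stated. The 22 control features were left out.

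For this text, each signal was scaled to the 75th percentile of its array, taken over the 78 miRNAs that all arrays detected. A common floor was set at the lowest detected scaled signal (log2 −9.32) before log2 was taken. A miRNA was tested if some group detected it on both arrays, which held for 159. The test was two-sided (lmFit and eBayes, limma 3.58.1 in R 4.3.3), with p-values adjusted over all 159 by Benjamini-Hochberg, and SE is the moderated standard error. Paralogue ratios were compared by exact permutation over samples. The fit was also run on simulated data, and no statement here rests on that run. Named besides the members were their other strands, the 5 nearest patterns, and counts over lists of cell type miRNAs. Members and lists were chosen with earlier results of these data known. Precision is limited by having 2 arrays a group. Alternatives were other scalings, floors, filters and variance models, the replicate block and each array left out.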

Additional observations from a re-analysis of the deposited data

How the results depend on the processing

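No member was called under any of the 16 alternatives. The difference of miR-27b kept its negative sign in all 16, but many of these could not turn it. The value table, filters, array floor, variance models and replicate block leave the difference itself unchanged. Leaving out an array could not turn it either, as its groups did not overlap. Only the other scalings and the 10 units added could, and all of these gave negative values. With the 75th percentile of all miRNAs, the log2 differences turned to −0.17 for miR-23a, −0.58 for miR-23b, −0.12 for miR-24 and −0.34 for miR-27a; with the median scaling, to −0.36 for miR-23b and −0.13 for miR-27a; without scaling, to −2.12 for miR-23a, −2.52 for miR-23b, −2.06 for miR-24 and −2.29 for miR-27a, where the median over all tested was −2.18. Leaving out 1 array moved miR-23a between 0.05 and 1.14, miR-23b between −0.16 and 0.55, miR-24 between 0.16 and 1.15, miR-27a between −0.011 and 0.86, and miR-27b between −0.27 and −0.13; the negative values of miR-23b and miR-27a and the lowest of miR-23a and miR-24 were those without ischemia-reperfusion replicate 2. Where a group kept 1 array, that array is assumed to vary like the others. Over all miRNAs, 2 were called lower without scaling. Without ischemia-reperfusion replicate 1, 2 were called higher and 9 lower, and no other array left out gave a call (range 0 to 2 higher, 0 to 9 lower). Both paralogue ratio changes stayed positive in all 9 alternatives each: 0.38 to 1.01 for miR-23 (1.01 with quantile normalization) and 0.48 to 0.62 for miR-27, or 0.19 to 0.61 and 0.12 to 1.13 with 1 array left out. Of these alternatives, the value table, the array floor and the replicate block could not move the changes. Leaving out an array could not turn the miR-23 change, as its groups did not overlap. With replicate number as a block the differences were the same and the adjusted p of the members ran from 0.863 to 0.978; the numbers share no stated source, and deviations of same-numbered samples had an r of 0.0973 over 159 miRNAs.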
